A study of Homo sapiens with 48 samples.

Results

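Parental 22Rv1 cells (Rv1-WT), a human castration-resistant prostate cancer line, were treated with the Mediator kinase inhibitor SNX631 in androgen-poor medium made with charcoal-stripped serum (CSS). The comparison holds 6 of the 48 libraries of the series, chosen by their labels: 3 from cells given 500 nM SNX631 and 3 from cells given 0.1% DMSO as vehicle, each for 72 hours. All 6 came from unmodified cells, and per the labels the cells of both groups spent a passage in CSS medium before they were seeded for treatment. The other libraries come from Rv1-WT in fetal bovine serum (FBS), from the luciferase-tagged subline Rv1-Luc in CSS and FBS, and from 4 FBS-grown derivatives that lack endogenous CDK8 and CDK19 and re-express 1 kinase. Those derivatives are dKO-8 and dKO-19 with an active kinase and dKO-8M and dKO-19M with a kinase-dead mutant, and all settings were treated with the same dose for the same time. 22Rv1 is a single line, so results hold for it and not for prostate cancer at large. The labels do not say whether the 3 replicates were separate experiments. Adjusted p-values thus measure the spread between replicate libraries only, estimated in 1 fit of all 48 libraries.

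CDK8 and CDK19 are paralogous kinases that join the Mediator complex, which links transcription factors at enhancers to RNA polymerase II. They do not drive the cell cycle directly. They act with signal-responsive transcription factors and can raise or lower the output of genes that are being switched on or off.

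The question was which genes differ in RNA level when both kinases are inhibited in cells that have little androgen. Of 20009 genes tested, 846 were called (4.23%), which required a change of more than 1.5-fold with an FDR, the false discovery rate, below 0.01. SNX631 raised 595 of them (2.97%) and lowered 251 (1.25%). Increases were also the larger changes: 304 genes rose by more than 2-fold and 75 by more than 4-fold, while 75 fell by more than 2-fold and 10 by more than 4-fold. The median log2 fold change was 1.01 among the genes that rose and -0.83 among those that fell, and over all genes tested it was -0.0014. Of the 846 genes, 840 (99.3%) had no overlap between their 3 vehicle and 3 SNX631 libraries, and over all genes 19.8% lay higher and 18.2% lower without overlap. Without the fold limit and at an FDR under 0.05, 2848 genes (14.2%) were higher and 2448 (12.2%) lower, so the large increases stood on a broad layer of small changes in either direction. Protein-coding genes made up 85.2% of the genes that rose and 76.1% of those that fell, against 73.5% of all genes tested.

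**Figure D1:**
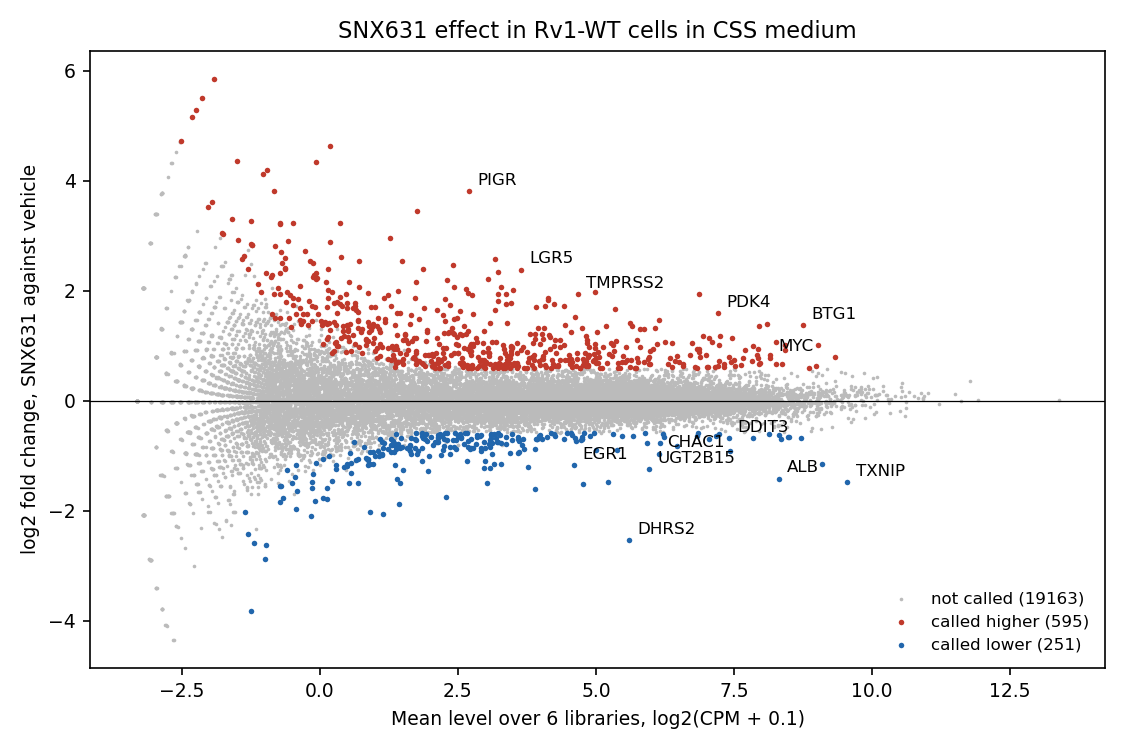
Each point is 1 gene, with its mean level over the 6 libraries on the x axis, as log2 of CPM plus 0.1, and its log2 fold change under SNX631 on the y axis. Red points are the 595 genes called higher and blue points the 251 called lower, and the longest changes point upward.

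The 6 libraries held 15.1 to 18.2 M counts, the smaller end of the series (13.2 to 31.5 M), and 24775 to 25272 genes with at least 1 count. Their scaling factors lay between 1.05 and 1.07. Neither transgene of the Rv1-Luc line, firefly luciferase or the blasticidin resistance gene, had a count in any of them. Levels below are CPM, counts divided by the library total in M after scaling for library composition, which are not corrected for gene length, so they compare libraries and not genes. Luminal prostate genes summed to 3904 to 3979 CPM under vehicle and 4672 to 4724 CPM under SNX631. Of 12 leukocyte markers, 3 had no count and the sum stayed between 2.13 and 3.78 CPM. The 8 endothelial markers summed to at most 1.92 CPM. Fibroblast markers summed to 21.6 to 26.6 CPM under vehicle and 26.8 to 31.7 CPM under SNX631, of which LUM and COL3A1 were called higher. The list did not move as a whole: of 6 tested, 3 had log2 fold changes above 0 and 3 below. COL1A1 averaged 9.41 CPM under vehicle and 8.04 CPM under SNX631. Of the plasma cell markers only the surface proteoglycan SDC1, which epithelial cells also make, had a sizeable level, and the share of these markers in the results was not tested.

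The transcripts of the drug's targets were measured next. CDK8 stood at 26.6, 27.2 and 25.4 CPM under vehicle and 28.05, 26.71 and 25.7 CPM under SNX631, and these ranges overlapped (log2 fold change 0.022 ± 0.059 SE, FDR = 0.837). CDK19 stood at 201, 205 and 200 CPM under vehicle and 278, 261 and 281 CPM under SNX631, all above the vehicle libraries, but its log2 fold change of 0.44 ± 0.042 stayed under the fold limit (FDR = 1.47e-12). None of the 7 genes of the Mediator kinase module was called. SNX631 acts on the proteins, so these RNA levels do not test inhibition.

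Androgen-regulated genes moved in both directions. Of 30 tested, 7 rose and 2 fell, against 2.97% of all genes higher and 1.25% lower, with a list median of 0.22. The list was not divided into genes that androgen induces and genes that it represses. These directions of RNA level therefore do not measure androgen output. The strongest increase was in TMPRSS2, a membrane serine protease whose androgen-driven promoter is the partner in common prostate cancer gene fusions. TMPRSS2 measured 9.23, 10.2 and 12.1 CPM under vehicle and 41.1, 42.0 and 38.4 CPM under SNX631, with no overlap (log2 fold change 1.94 ± 0.076, FDR = 5.86e-29). KLK4, a kallikrein protease, went from 91.9, 89.4 and 100 CPM to 227, 202 and 205 CPM (1.17 ± 0.062, FDR = 4.28e-22). The elongation factor ELL2 rose by 0.92 ± 0.065 on the log2 scale.

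The classical prostate-specific antigen genes were not among those that rose. KLK3, which encodes that antigen, measured 8.62, 8.30 and 8.60 CPM under vehicle and 6.25, 5.23 and 6.25 CPM under SNX631. The libraries did not overlap, yet the log2 fold change of -0.53 ± 0.14 missed the fold limit (FDR = 0.00382). KLK2, its neighbour, measured 11.4, 11.5 and 13.7 CPM under vehicle and 12.1, 12.3 and 10.6 CPM under SNX631, which overlap (-0.073 ± 0.18, FDR = 0.820, with the opposite sign, 0.023, without vehicle replicate 3). UGT2B15, an enzyme that conjugates androgens for removal, fell from 85.4, 85.3 and 90.9 CPM to 34.4, 38.3 and 37.8 CPM (-1.24 ± 0.070, FDR = 9.20e-22). SLC45A3, the prostate marker prostein, fell from 13.5, 14.4 and 14.7 CPM to 7.98, 7.30 and 6.68 CPM (-0.96 ± 0.11, FDR = 3.23e-10).

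Among 18 genes of luminal prostate identity, 4 rose (2.97% of all genes did) and none fell, with a median of 0.34. These included STEAP1, a prostate surface antigen, at 16.5, 18.6 and 18.4 CPM under vehicle and 29.3, 29.3 and 28.7 CPM under SNX631 (0.71 ± 0.079), and the simple-epithelium keratin KRT19 at 93.4, 98.1 and 107 CPM against 207, 195 and 196 CPM (1.00 ± 0.14).

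**Figure D2:**
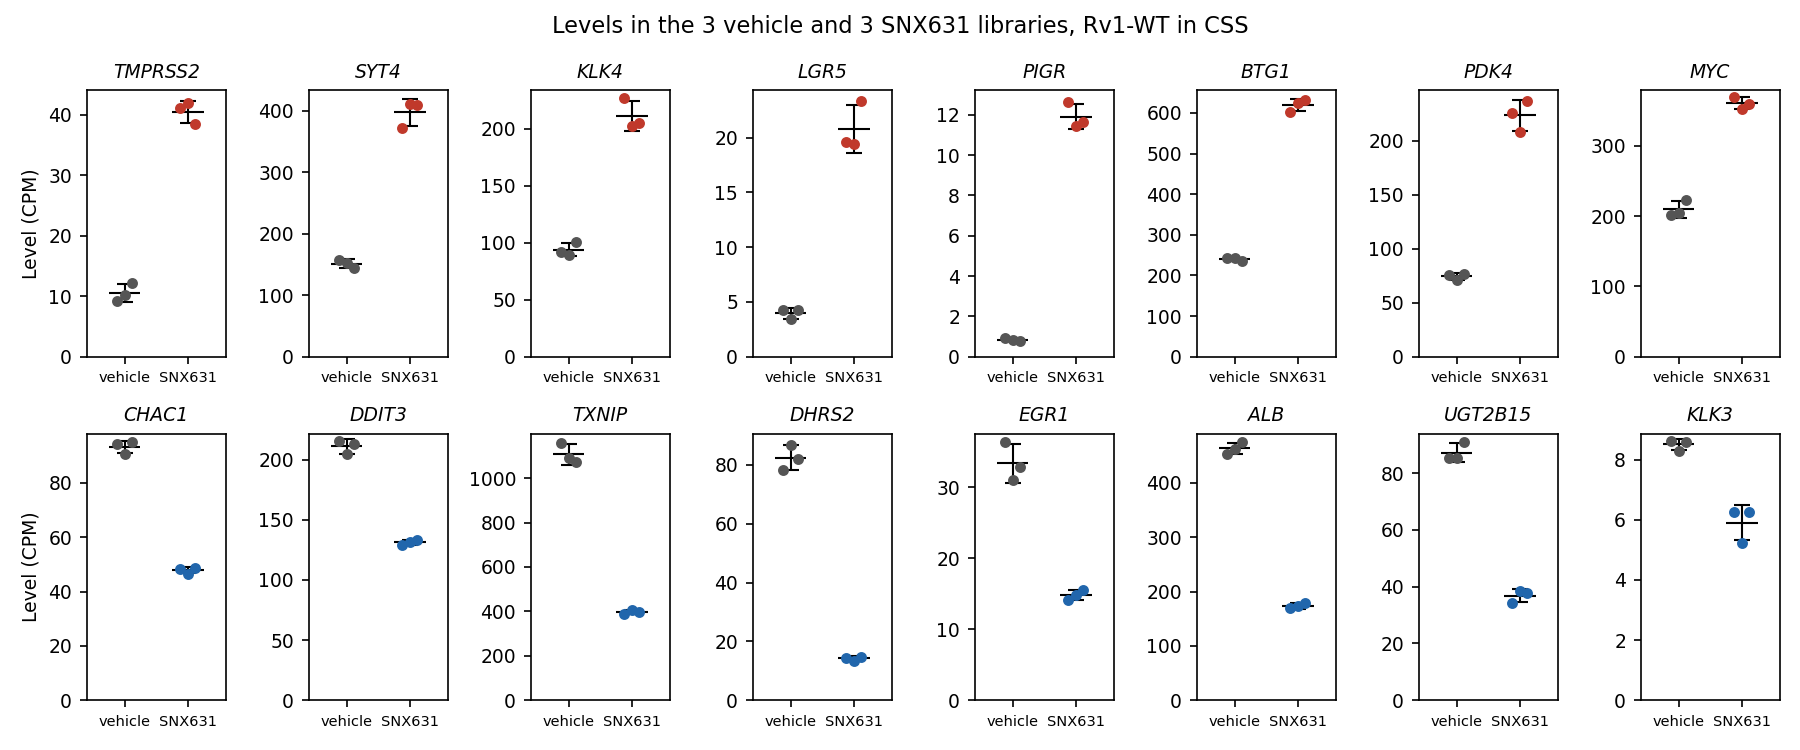
Levels in CPM (y axes, from 0) of 16 genes in the 3 vehicle libraries (grey) and the 3 SNX631 libraries (red where higher, blue where lower), with points for libraries, bars for means and error bars for the standard deviation. In all 16 genes the vehicle and SNX631 libraries lie apart, and KLK3 shows the smallest separation, from 8.30 to 8.62 CPM against 5.23 to 6.25 CPM.

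Several genes of the stress response run by the transcription factor ATF4 fell under SNX631. ATF4 is translated when cells lack amino acids or carry misfolded protein, and it switches on genes for amino acid supply and, when stress lasts, for cell death. Of 20 genes named as its partners and targets, 5 fell (1.25% of all genes did) and none rose, 19 had log2 fold changes below 0, and the median was -0.44. CHAC1, a glutathione-degrading enzyme, fell from 94.2, 90.6 and 94.9 CPM to 48.4, 46.6 and 48.5 CPM (-0.96 ± 0.13, FDR = 3.57e-07). DDIT3, which encodes the stress factor CHOP, fell from 216, 204 and 213 CPM to 129, 131 and 133 CPM (-0.68 ± 0.048, FDR = 8.18e-18). NIBAN1 fell from 246, 215 and 215 CPM to 123, 110 and 124 CPM (-0.92 ± 0.074), and the stress-induced coregulator NUPR1 from 180, 169 and 182 CPM to 121, 108 and 109 CPM (-0.65 ± 0.064). In each of these genes every SNX631 library lay below every vehicle library. DDIT3, NUPR1 and ASNS had fractional counts in most of the 6 libraries, so part of their reads was shared with other genes.

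ATF4 RNA measured 755, 744 and 755 CPM under vehicle and 681, 699 and 703 CPM under SNX631 and was not called (-0.11 ± 0.052, FDR = 0.105). Its supply genes moved only in part. The shares to set beside their counts are 2.97% of all genes called higher and 1.25% called lower. Of 19 enzymes of amino acid and one-carbon synthesis, asparagine synthetase ASNS (438, 443 and 451 CPM against 271, 283 and 289 CPM, log2 fold change -0.66 ± 0.088) and argininosuccinate synthase ASS1 (14.7, 14.2 and 15.8 CPM against 10.8, 9.06 and 7.61 CPM, -0.71 ± 0.12) fell and none rose. Among 13 amino acid transporters 1 fell and 1 rose. The one that fell was SLC7A11, the cystine importer, from 439, 407 and 367 CPM to 254, 241 and 256 CPM (-0.69 ± 0.12). None of 20 cytosolic aminoacyl-tRNA synthetases was called, the largest change being in WARS1 (-0.55 ± 0.045), which passed the limits without vehicle replicate 2 (-0.59). CDKN1A, the cell cycle inhibitor p21 and a target of both ATF4 and p53, fell from 138, 133 and 144 CPM to 92.8, 93.6 and 89.1 CPM. Its log2 fold change of -0.59 ± 0.050 lay at the limit, and it moved to -0.57 without SNX631 replicate 3 and to -0.56 without vehicle replicate 3, where it was no longer called.

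Promoter sequence is shown for 1 stress gene and 1 supply gene of this group, since ATF4 acts with C/EBP partners through a composite DNA element. The table of RefSeq promoters (GRCh38.p14) had windows for 18 of the 20 ATF4 genes and for 13 of the 19 synthesis enzymes. The letters TGATGNAA, searched on both strands from 250 bases before to 50 after a start, were found in 4 of those 18 genes (22.2%) and 4 of those 13 (30.8%). They were found in 2.83% of the 12633 tested genes with a window and in 4.46% of all 27305 genes in the table. The share was 3.47% of the genes called higher and 5.88% of those called lower that had a window. Of the 4 ATF4 genes with a match (ATF3, CHAC1, CEBPG and FGF21) only CHAC1 was called. Of the 4 enzymes with a match (MTHFD1L, ASNS, GOT1 and BCAT1) only ASNS was called. DDIT3, NIBAN1 and NUPR1, which fell, were not among those with a match. Both printed windows are thus of called genes. Below are the 250 bases before each start, 5′ to 3′ on the gene's strand, with the match in capitals. CHAC1 (chr15:40953221-40953470, plus strand) holds it in reverse orientation, its first letter 209 bases before the start. ASNS (chr7:97872409-97872658, minus strand) holds it in forward orientation, beginning 68 bases before the start. A match of letters is a description and does not show that a factor binds there.
CHAC1: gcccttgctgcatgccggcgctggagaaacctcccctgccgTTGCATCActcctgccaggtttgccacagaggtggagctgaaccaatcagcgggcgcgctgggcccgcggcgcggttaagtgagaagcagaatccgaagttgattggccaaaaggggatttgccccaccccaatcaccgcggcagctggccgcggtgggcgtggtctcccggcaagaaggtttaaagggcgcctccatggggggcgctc
ASNS: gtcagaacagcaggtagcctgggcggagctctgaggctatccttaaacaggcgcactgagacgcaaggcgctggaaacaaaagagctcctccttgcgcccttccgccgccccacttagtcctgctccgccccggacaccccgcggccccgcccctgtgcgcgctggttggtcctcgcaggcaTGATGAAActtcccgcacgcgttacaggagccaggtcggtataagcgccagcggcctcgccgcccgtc

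Genes of cell growth and division showed small but broad shifts that stayed under the fold limit. All 30 nucleolar genes of ribosome biogenesis had log2 fold changes above 0, from 0.092 to 0.40 with a median of 0.26, and 29 of them passed an FDR under 0.05, against 14.2% of all genes in that direction. These 30 genes averaged 22.0 to 971 CPM over the 6 libraries, and the median gene tested averaged 12.8 CPM. Neither this share of all genes nor those given for other lists were matched for level. TSR1, a maturation factor of the small subunit, measured 124, 119 and 123 CPM under vehicle and 159, 158 and 162 CPM under SNX631 (0.39 ± 0.038, FDR = 1.76e-12). NOLC1, a nucleolar phosphoprotein, measured 445, 424 and 445 CPM against 548, 536 and 552 CPM (0.32 ± 0.034). None of the 30 was called. MYC, the transcription factor best known for driving these genes, was called. It measured 201, 205 and 223 CPM under vehicle and 370, 353 and 360 CPM under SNX631 (0.78 ± 0.049, FDR = 8.71e-20), and it was the only called gene of 13 in the MYC network (2.97% of all genes rose). In Rv1-Luc in CSS the nucleolar median was 0.14 and the log2 fold change of MYC 0.030. In Rv1-WT in FBS these values were 0.10 and 0.12. Whether MYC has a part in the nucleolar shift was not tested.

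The E-box letters CACGTG, to which MYC and other factors of its class can bind, were found in the promoter windows of 13 of the 24 nucleolar genes that had a window (54.2%), against 12.1% of tested genes, 8.68% of the genes that rose and 10.6% of those that fell. Shown is DDX21, a nucleolar RNA helicase chosen after its values were seen, at chr10:68956397-68956646, plus strand (GRCh38.p14), with the E-box in capitals beginning 31 bases before the start. Its level measured 445 CPM under vehicle and 531 CPM under SNX631 on average (0.26 ± 0.043).
DDX21: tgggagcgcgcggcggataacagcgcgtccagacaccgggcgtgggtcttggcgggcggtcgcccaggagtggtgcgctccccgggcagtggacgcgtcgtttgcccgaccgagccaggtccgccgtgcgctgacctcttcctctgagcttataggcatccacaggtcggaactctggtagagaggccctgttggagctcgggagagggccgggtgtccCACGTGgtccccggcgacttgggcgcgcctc

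Replication and mitosis genes leaned in opposite directions. Of 31 genes of DNA replication and the G1/S step, 27 had log2 fold changes above 0 (median 0.15). At an FDR under 0.05, 17 of them were higher, against 14.2% of all genes. E2F2 was the largest at 0.56 ± 0.053 and was called (0.65) without vehicle replicate 3 and (0.61) without SNX631 replicate 3. Of 26 mitotic genes, 22 lay below 0 (median -0.12) and 13 were lower at an FDR under 0.05, against 12.2% of all genes. The mitotic kinase PLK1 measured 134, 143 and 146 CPM under vehicle and 99.2, 102 and 98.2 CPM under SNX631 (-0.50 ± 0.044, FDR = 3.50e-14). MKI67, the proliferation marker Ki-67, measured 391, 425 and 341 CPM against 310, 270 and 304 CPM (-0.39 ± 0.091, FDR = 0.00133). Neither list had a called gene in the full set of libraries. In bulk RNA, fewer cells in a phase and less RNA per cell cannot be told apart.

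The increases with the lowest FDR included adaptor proteins and a metabolic kinase. BTG1 and TOB1 belong to a family of adaptor proteins that promote messenger RNA decay and restrain growth. BTG1 rose from 242, 242 and 235 CPM to 602, 624 and 633 CPM (1.37 ± 0.037, FDR = 1.12e-36, the lowest of all genes), with fractional counts in 2 of the 6 libraries. TOB1 rose from 169, 167 and 166 CPM to 318, 325 and 321 CPM (0.94 ± 0.035, FDR = 7.01e-30). TRIB1, a pseudokinase adaptor of the COP1 ligase, rose from 73.6, 77.7 and 73.3 CPM to 169, 170 and 168 CPM (1.18 ± 0.044). NET1, an exchange factor for RhoA, rose from 147, 143 and 143 CPM to 264, 276 and 278 CPM (0.92 ± 0.036). PDK4, which slows the entry of pyruvate into the citric acid cycle, rose from 75.9, 70.8 and 76.3 CPM to 226, 209 and 237 CPM (1.59 ± 0.060, FDR = 7.01e-30). In none of these genes did the 2 groups overlap.

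Several secretory and neuronal-type genes rose as well. Of 24 neuroendocrine and secretory vesicle genes 19 passed the expression filter, and of these 6 rose (2.97% of all genes did) and none fell, with a median of 0.39. SYT4, a synaptotagmin of secretory vesicles, measured 158, 152 and 144 CPM under vehicle and 372, 411 and 409 CPM under SNX631 (1.39 ± 0.048, FDR = 8.87e-32). The granule proteins CHGB (26.8, 27.3 and 25.5 CPM against 73.6, 67.7 and 71.6 CPM, 1.42 ± 0.072) and SCG2 (3.56, 3.47 and 2.59 CPM against 7.63, 5.86 and 8.69 CPM, 1.21 ± 0.17) and the active-zone protein RIMS3 (1.09 ± 0.054) followed the same direction. SYT11 and SCGN also rose, but from no more than 1.24 CPM. Of 27 keratins and squamous genes 11 passed the expression filter, and of these 5 rose (against 2.97% of all genes) and none fell. The best measured of them was SFN, which encodes 14-3-3 sigma, at 107, 109 and 115 CPM under vehicle and 249, 244 and 233 CPM under SNX631 (1.13 ± 0.049, FDR = 4.83e-27). KRT15 had at most 3 counts in every vehicle library and reached 1.27, 0.853 and 0.652 CPM under SNX631, at least 5.47-fold the level that 3 counts per library allow. KRT80 and KRT81 were also low, averaging 0.30 and 0.15 CPM under vehicle and 1.40 and 0.76 CPM under SNX631. Genes this low under vehicle can pass the filter through libraries in which they are higher. The 5 of 11, and the 6 of 19 that include SYT11, can thus be inflated against the share of all genes.

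Of 34 Wnt pathway genes tested, 5 rose and 1 fell, against 2.97% of all genes higher and 1.25% lower (median 0.032). LGR5, a receptor for R-spondins and a stem cell marker in intestine, rose from 4.22, 3.41 and 4.25 CPM to 19.6, 19.4 and 23.3 CPM (2.38 ± 0.13, FDR = 4.60e-23). The receptor FZD4 (14.95, 13.6 and 12.5 CPM against 32.4, 30.5 and 35.2 CPM, 1.26 ± 0.098), the ligand WNT7B (1.59 ± 0.21) and the receptor-degrading ligase RNF43 (17.7, 18.8 and 19.3 CPM against 40.7, 37.6 and 36.6 CPM, 1.04 ± 0.077) rose too. The feedback inhibitor AXIN2 rose by 0.595 ± 0.062 from 27.5, 27.3 and 27.5 CPM to 42.7, 43.8 and 37.7 CPM, a call that was lost without SNX631 replicate 1 (0.57) or replicate 2 (0.55), without the expression filter (0.58), with counts thinned to the smallest library (0.58) and with scaling to library size alone (0.58). The ligand WNT5A, which often signals outside the beta-catenin branch, fell from 2.89, 3.97 and 3.37 CPM to 2.54, 0.800 and 1.25 CPM (-1.16 ± 0.25), and its FDR was 0.0114 without SNX631 replicate 2. Of 31 genes of SMAD signalling, 4 rose (against 2.97% of all genes) and none fell, with FST, the activin-binding protein follistatin, the highest at 2.06, 1.36 and 1.76 CPM against 8.44, 7.198 and 8.21 CPM (2.19 ± 0.19). BMP6 rose from 3.50, 3.72 and 2.95 CPM to 6.36, 6.82 and 9.40 CPM (1.16 ± 0.15).

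Signal-induced and inflammatory lists held few called genes, which were in both directions. Of all genes 2.97% were called higher and 1.25% lower, and counts this small were not tested against those shares. Of 28 AP-1 and immediate-early genes 1 rose and 2 fell. EGR1, an early zinc-finger factor, fell from 36.4, 30.9 and 32.8 CPM to 14.1, 14.8 and 15.5 CPM (-1.17 ± 0.097, FDR = 5.09e-15), and JUN fell from 159, 166 and 168 CPM to 101, 101 and 101 CPM (-0.70 ± 0.063). DUSP6, a phosphatase that turns off ERK, rose from 22.4, 21.7 and 24.0 CPM to 35.3, 34.1 and 36.1 CPM (0.63 ± 0.094). Of 19 genes of the NF-kappaB pathway 1 rose (IER3, 0.88 ± 0.15) and 1 fell. The one that fell was NKILA, a long noncoding RNA that restrains NF-kappaB, from 8.95, 8.49 and 8.08 CPM to 3.82, 3.89 and 4.24 CPM (-1.09 ± 0.13, FDR = 7.85e-10). Of 26 interferon-stimulated genes none rose and 3 fell (against 1.25% of all genes), all under 5 CPM, with the factor IRF1 at 3.84, 4.34 and 3.01 CPM against 1.68, 1.97 and 2.45 CPM (-0.86 ± 0.17). The EGF-family ligand AREG fell from 13.01, 10.5 and 10.7 CPM to 6.82, 5.44 and 5.33 CPM (-0.96 ± 0.18), the only called gene of 13 in that family.

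Of 33 hypoxia and glycolysis genes 4 rose (against 2.97% of all genes) and none fell. EGLN3, an oxygen-sensing prolyl hydroxylase, rose from 4.78, 4.77 and 4.46 CPM to 17.2, 15.5 and 14.5 CPM (1.75 ± 0.18, FDR = 8.33e-10), and the carbonic anhydrase CA12 from 30.6, 26.8 and 27.3 CPM to 53.1, 49.3 and 47.1 CPM (0.82 ± 0.080). The differentiation gene NDRG1, which also responds to androgen, measured 44.1, 53.6 and 48.9 CPM against 75.1, 78.3 and 78.5 CPM (0.66 ± 0.17, FDR = 0.00361), but the call was lost without vehicle replicate 1 or 3 or SNX631 replicate 2 or 3 (0.59 to 0.66, FDR from 0.0128 to 0.0265). It was also lost with a replicate block, where the log2 fold change of NDRG1 was 0.66 and the FDR 0.0126. Of 33 respiratory chain subunits none was called, although 30 had log2 fold changes above 0 (median 0.12). Among 23 antioxidant genes linked to NRF2, the steroid-converting reductases AKR1C1 (4.78, 4.65 and 3.52 CPM against 10.9, 14.1 and 15.7 CPM, 1.66 ± 0.16) and AKR1C2 (10.7, 13.8 and 13.7 CPM against 37.1, 37.2 and 34.9 CPM, 1.51 ± 0.12) rose and SLC7A11 fell. These 2 reductases are near-identical paralogs, so the division of reads between them is uncertain. Of 27 heat shock and chaperonin genes only HSPA1A was called, falling by 0.86 on the log2 scale, and its counts were fractional in 5 of the 6 libraries, since it shares reads with a near-identical copy. Of 26 p53 targets and kinase inhibitors 4 rose and CDKN1A fell, of 21 fatty acid synthesis genes 1 rose, of 16 genes of MHC class I presentation 1 rose, and of 9 metallothionein and zinc genes 1 fell. All counts of called genes in this paragraph stand against 2.97% of all genes higher and 1.25% lower. The single calls of the last 3 lists depended on the setting. ACSS2, an acetyl-CoA synthetase, had log2 fold changes of 0.58 without vehicle replicate 1 and 0.52 without SNX631 replicate 2, too small to be called. PSMB9, an immunoproteasome subunit, was lost without vehicle replicate 2 or 3 or SNX631 replicate 3 (FDR from 0.0151 to 0.0187). MT1E, a metallothionein, was lost in 8 settings, with an FDR of up to 0.0634 without SNX631 replicate 3.

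**Figure D3:**
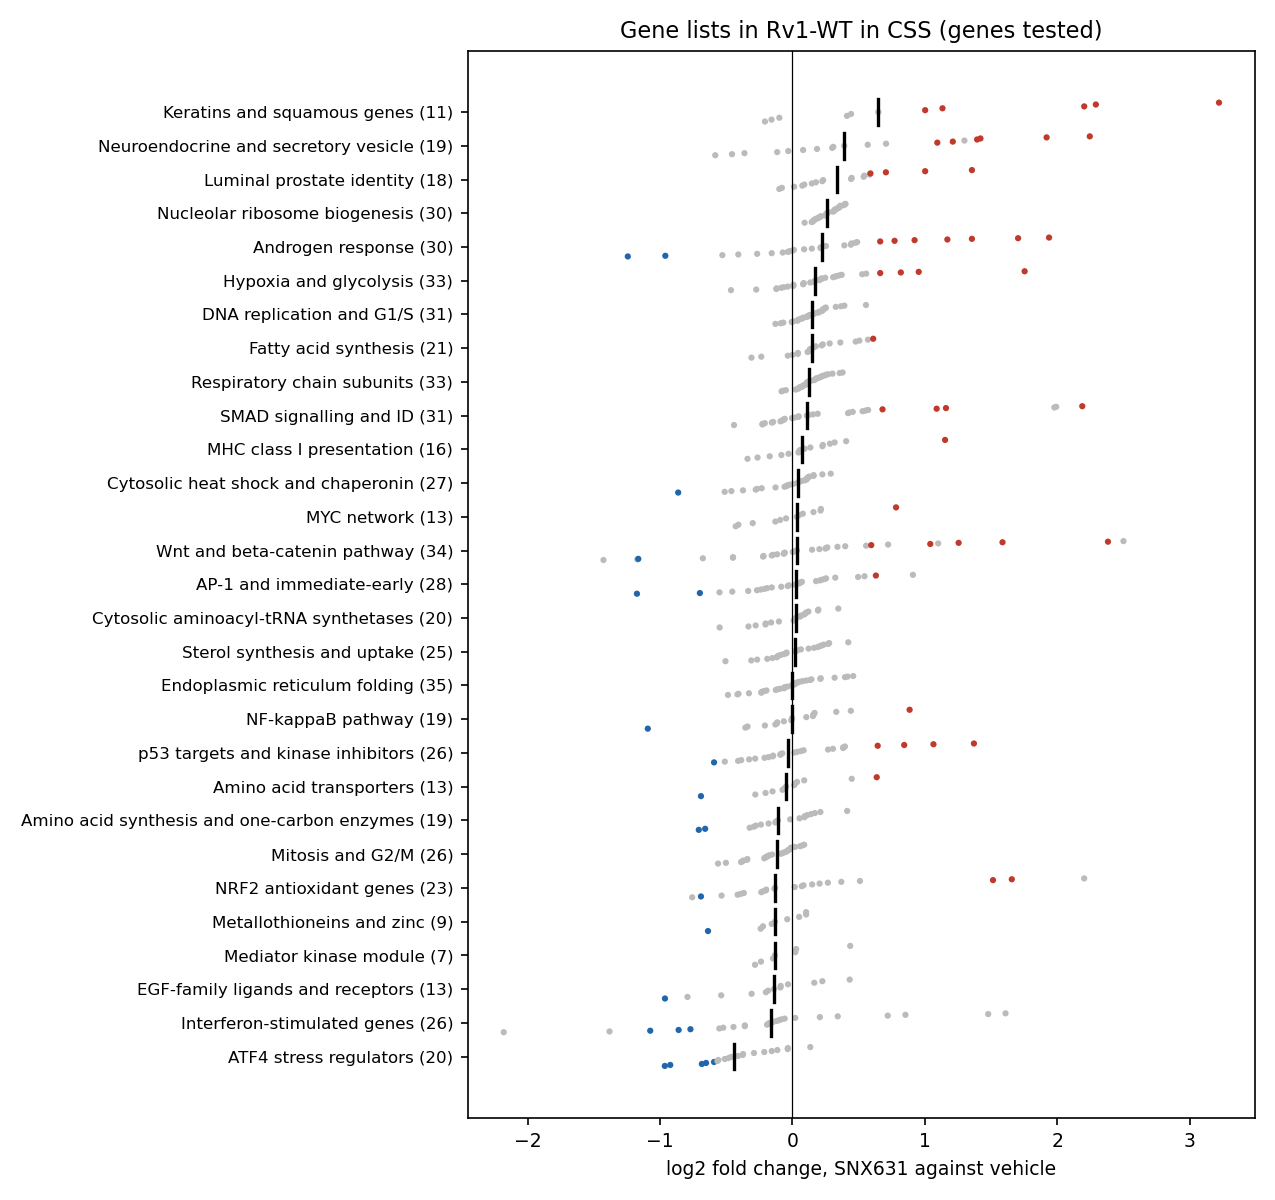
Log2 fold change under SNX631 (x axis) of every tested member of 29 gene lists (rows, with the number tested), as red points where called higher, blue where called lower and grey otherwise, with a black bar at the list median. The ATF4 list sits farthest to the left, with a median of -0.44, and the nucleolar list forms a tight cluster at 0.26 with no called gene.

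The genes with the largest changes, among those with a mean of at least 2 CPM, included epithelial, hormonal and neuronal genes. PIGR, which carries immunoglobulins across epithelia, rose about 14-fold, from 0.945, 0.806 and 0.777 CPM to 12.6, 11.5 and 11.6 CPM (3.81 ± 0.23, FDR = 1.01e-19). Transglutaminase TGM2 rose by 2.96 ± 0.35, and the distal homeobox gene HOXA13 rose from 2.67, 2.42 and 2.54 CPM to 16.7, 13.9 and 15.3 CPM (2.58 ± 0.15, FDR = 6.16e-21). The potassium channel KCNK17 (2.54 ± 0.32), CGA, the common alpha chain of glycoprotein hormones (2.47 ± 0.25), the synaptic protein CBLN4 (2.39 ± 0.27) and the carbonic anhydrase-related CA10 (2.34 ± 0.17) followed. TCIM (2.21 ± 0.17), the insulin-like growth factor binding protein IGFBP1 (2.16 ± 0.43), the protocadherin PCDH9 (2.06 ± 0.20) and the lipid transporter MFSD2A (2.04 ± 0.14) rose by about 4-fold or more. PTGS2, the inducible cyclooxygenase, rose from 5.11, 4.46 and 3.73 CPM to 17.99, 16.6 and 19.2 CPM (2.02 ± 0.18). All of them had every SNX631 library above every vehicle library.

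The largest decrease was in DHRS2, a mitochondrial and nuclear short-chain dehydrogenase, from 78.3, 86.8 and 81.9 CPM to 14.4, 13.4 and 14.8 CPM (-2.53 ± 0.15, FDR = 6.99e-16). TXNIP, which binds thioredoxin and limits glucose uptake, fell from 1160, 1091 and 1072 CPM to 390, 405 and 395 CPM (-1.48 ± 0.066, FDR = 1.05e-20). ALB, which encodes serum albumin, fell from 454, 462 and 475 CPM to 169, 173 and 179 CPM (-1.42 ± 0.071). The mitochondrial enzyme DMGDH, which degrades dimethylglycine, fell from 23.8, 21.5 and 21.6 CPM to 7.92, 7.46 and 6.63 CPM (-1.60 ± 0.15). LAMP3, a lysosomal membrane protein (-1.51 ± 0.13), the glucuronosyltransferase UGT2B10 (-1.50 ± 0.18), CNTD1 (-1.75 ± 0.17), the chemerin receptor CMKLR2 (-1.88 ± 0.30), CCDC144NL (-2.06 ± 0.30) and TMEM140 (-1.49 ± 0.31) fell from levels of 3.1 to 50.3 CPM. RELN, a secreted matrix glycoprotein, fell from 68.7, 50.9 and 43.8 CPM to 20.3, 16.3 and 21.7 CPM (-1.49 ± 0.15), and its FDR was 0.0113 in a fit of the 6 libraries alone.

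The next comparison asked whether the response in CSS differed from that of the same cells in FBS, which share no libraries with it. The difference of the 2 effects was tested for every gene, and 59 (0.295%) were called, 49 with the more positive effect in CSS and 10 with the more negative. At an FDR under 0.05 with no fold limit there were 627 (3.13%). The strongest were chaperones of the endoplasmic reticulum, which fold secreted proteins. HSP90B1, the chaperone GRP94, measured 1009, 1058 and 1067 CPM under vehicle and 1068, 1173 and 1134 CPM under SNX631 in CSS, with every SNX631 library above every vehicle library but a log2 fold change of only 0.11 ± 0.041. In FBS it measured 2238, 2235 and 2168 CPM under vehicle and 1384, 1441 and 1360 CPM under SNX631 (-0.67 ± 0.041). The effects differed by 0.77 ± 0.058 (FDR = 8.34e-15). PDIA4, a disulfide isomerase, differed by 0.83 ± 0.071 (FDR = 1.39e-12), with 174, 176 and 184 CPM against 194, 205 and 190 CPM in CSS and 504, 500 and 483 CPM against 299, 315 and 311 CPM in FBS. CALR, the lectin chaperone calreticulin, differed by 0.65 ± 0.062 (FDR = 4.96e-11), with 482, 520 and 540 CPM against 622, 677 and 625 CPM in CSS and 1230, 1196 and 1209 CPM against 971, 979 and 931 CPM in FBS. For all 3 genes the vehicle level in CSS was already below the SNX631 level in FBS.

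HSPA5, the master chaperone BiP, was lower under SNX631 in CSS but not called, at 466, 406 and 416 CPM against 374, 357 and 363 CPM (-0.23 ± 0.051, FDR = 0.000323). In FBS it measured 932, 940 and 894 CPM against 553, 541 and 523 CPM (-0.77 ± 0.051), and the effects differed by 0.54 ± 0.072 (FDR = 8.07e-07), under the fold limit. XBP1, a transcription factor that induces chaperones, measured 269, 273 and 286 CPM against 313, 321 and 324 CPM in CSS (0.21 ± 0.037), with a difference of effects within its error (0.080 ± 0.053, FDR = 0.532). Of all 35 endoplasmic reticulum folding genes none was called in CSS, 5 had a called difference between the sera and 13 a difference at an FDR under 0.05 (37.1%, against 3.13% of all genes). Their median log2 fold change was -0.0015 in CSS and -0.11 in FBS.

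The ER stress element, CCAAT and CCACG with 9 bases between them on either strand, is the sequence through which ATF6 and XBP1 induce chaperones. It was found in the promoter windows of 8 of 30 folding genes (26.7%), in 0.135% of tested genes and in none of the 403 higher and 170 lower called genes that had a window. Of the 5 folding genes with a called difference between the sera, HSP90B1, CALR and CRELD2 held the element, PDIA4 had windows without a match and DERL3 had no window in the table. HSPA5, XBP1, CANX, PDIA6 and ERO1B held it without a called difference. The windows of HSP90B1 (chr12:103930160-103930409, plus strand, GRCh38.p14) and CALR (chr19:12938359-12938608, plus strand) are printed as examples with both a match and a called difference, a choice made after the values were seen, with matches in capitals. HSP90B1 has 2, beginning 194 and 89 bases before the start in opposite orientation, and CALR has 1, beginning 225 bases before the start.
HSP90B1: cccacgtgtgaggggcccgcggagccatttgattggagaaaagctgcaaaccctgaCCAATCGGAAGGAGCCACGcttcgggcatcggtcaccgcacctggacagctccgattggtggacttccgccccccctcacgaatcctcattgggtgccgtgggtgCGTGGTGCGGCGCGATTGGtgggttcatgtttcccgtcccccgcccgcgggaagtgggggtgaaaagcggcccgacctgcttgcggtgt
CALR: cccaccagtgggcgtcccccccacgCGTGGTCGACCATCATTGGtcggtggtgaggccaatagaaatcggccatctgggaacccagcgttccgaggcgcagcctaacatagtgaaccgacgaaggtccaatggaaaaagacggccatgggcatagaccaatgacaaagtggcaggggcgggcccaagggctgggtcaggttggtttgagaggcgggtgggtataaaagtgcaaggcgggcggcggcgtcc

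Sterol genes also had more negative effects in FBS. Of 25 genes of cholesterol synthesis and uptake none was called in CSS (median 0.021), while their median in FBS was -0.35, and 14 had effects that differed at an FDR under 0.05 (against 3.13% of all genes), with 1 of them called. HMGCS1, an early enzyme of the pathway, measured 185, 200 and 199 CPM against 152, 193 and 166 CPM in CSS, which overlap (-0.19 ± 0.14, FDR = 0.375), and its log2 fold change in FBS was -0.91.

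Other genes had a more positive effect in CSS than in FBS. MYC measured 273, 251 and 272 CPM against 302, 283 and 278 CPM in FBS, a log2 fold change of 0.12, and the effects differed by 0.67 ± 0.069 (FDR = 6.77e-10). TFRC, the transferrin receptor, differed by 0.61 ± 0.062, with 302, 311 and 315 CPM against 426, 440 and 444 CPM in CSS (0.50, not called) and 741, 739 and 710 CPM against 675, 696 and 660 CPM in FBS. APLN, the secreted peptide apelin, differed by 0.75 ± 0.076, from 560, 590 and 634 CPM to 731, 721 and 699 CPM in CSS and from 1255, 1202 and 1232 CPM to 917, 818 and 910 CPM in FBS. TMPRSS2 rose in both sera, and the excess of 0.58 ± 0.11 in CSS missed the fold limit (FDR = 0.000321). The CSS vehicle libraries enter the CSS effect, so vehicle levels and effects in CSS are not independent.

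A further test compared the effect in CSS between Rv1-Luc and Rv1-WT. The effects differed for 225 genes (1.12%), of which 168 had the more negative effect in Rv1-Luc and 57 the more positive, and 106 of the 225 were among the 846 genes called in Rv1-WT. PDIA4 differed by -1.30 ± 0.071 and HSP90B1 by -1.04 ± 0.058 (FDR = 4.49e-21 for both). HSP90B1 in Rv1-Luc measured 3162, 2956 and 3078 CPM under vehicle and 1707, 1514 and 1585 CPM under SNX631 in CSS, close to its levels in FBS in that line (3150, 3229 and 3631 CPM against 1656, 1682 and 1571 CPM). PDIA4 measured 752, 712 and 757 CPM against 364, 311 and 323 CPM in Rv1-Luc in CSS. For both genes every vehicle library of Rv1-Luc in CSS lay above every vehicle library of Rv1-WT in CSS. CALR differed by -0.69 ± 0.062 between the lines. XBP1 differed by -0.58 ± 0.053, which was not called. Both this test and the test between sera use the 6 Rv1-WT libraries in CSS, so they are not independent.

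Several of the strongest increases in Rv1-WT were smaller in Rv1-Luc. SYT4 measured 73.0, 69.0 and 67.3 CPM against 88.7, 85.7 and 83.7 CPM there (difference -1.09 ± 0.070, FDR = 2.44e-18). TOB1 measured 152, 146 and 150 CPM against 177, 168 and 175 CPM (-0.72 ± 0.050), and NET1 86.2, 86.1 and 82.4 CPM against 111, 102 and 108 CPM (-0.59 ± 0.052). MYC measured 323, 303 and 308 CPM against 333, 312 and 308 CPM, which overlap (-0.75 ± 0.068, FDR = 3.36e-12). SOAT1, which esterifies cholesterol, measured 61.6, 58.8 and 61.1 CPM against 57.5, 58.9 and 53.4 CPM in Rv1-Luc and 116, 129 and 122 CPM against 183, 204 and 199 CPM in Rv1-WT (-0.77 ± 0.071). KLK3 went the other way: it measured 4.33, 5.10 and 4.62 CPM under vehicle and 8.19, 7.70 and 7.88 CPM under SNX631 in Rv1-Luc, and the effects differed by 1.29 ± 0.20 (FDR = 6.26e-06). TMPRSS2 responded by 1.96 in Rv1-Luc and 1.94 in Rv1-WT, with a difference of 0.020 ± 0.12 (FDR = 0.951). The stress genes fell further in Rv1-Luc, CHAC1 by a difference of -1.35 ± 0.28 and DDIT3 by -0.64 ± 0.075, both called.

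**Figure D4:**
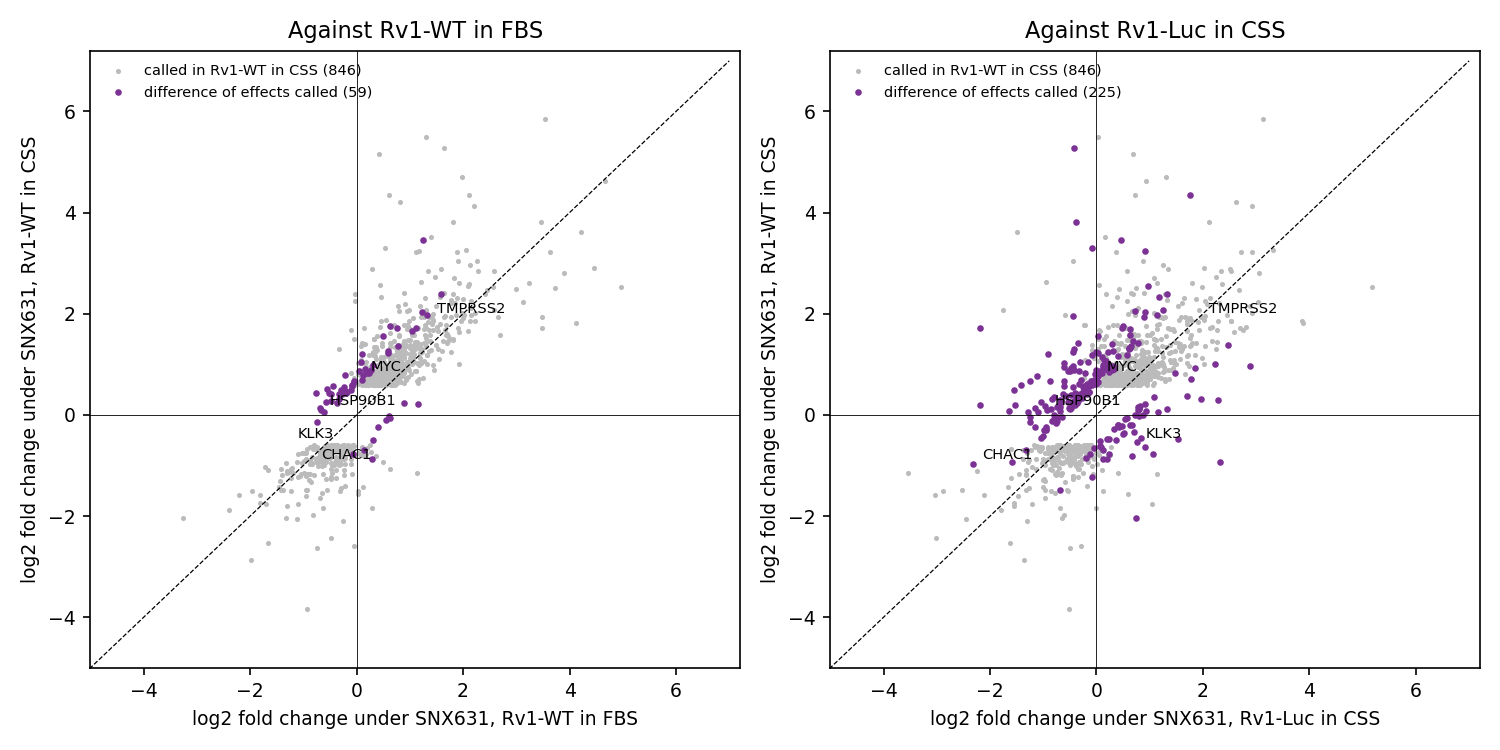
Log2 fold change under SNX631 in Rv1-WT in CSS (y axes) against that in Rv1-WT in FBS (left x axis) and in Rv1-Luc in CSS (right x axis). Grey points are the 846 genes called in Rv1-WT in CSS, purple points the 59 (left) and 225 (right) genes whose effects differed, and the dashed line marks equal effects, with most grey points that rose above it.

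The 846 genes were then followed in the 7 other settings, none of which shares a library with the comparison that chose them. In Rv1-WT in FBS, 97.5% of the genes that rose and 91.6% of those that fell had the same sign, and 270 and 58 of them were called (in that setting 1.75% of all genes were called higher and 0.645% lower). Across the 846 genes the effects in FBS gave r = 0.824 and rho = 0.857 with a slope of 0.62, where genes are not independent and no p is given. Since the 846 were picked for large effects in CSS, a slope under 1 cannot be read as a weaker response in FBS. In Rv1-Luc in CSS the same signs were found for 90.6% and 91.2% (r = 0.686, rho = 0.714, slope 0.54), and 264 and 89 were called (background 2.45% and 1.61%). In Rv1-Luc in FBS they were found for 89.9% and 88.4% (r = 0.703, rho = 0.729), and 253 and 69 were called (background 2.32% and 1.34%). With an active kinase put back, dKO-19 had the same sign for 71.6% and 78.9% (r = 0.448, rho = 0.496), with 150 and 55 called (background 1.87% and 1.53%). In dKO-8 it was 65.2% and 75.3% (r = 0.398, rho = 0.443), with 61 and 41 called (background 0.655% and 1.05%).

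With a kinase-dead mutant the shares lay nearer to those of all genes. In dKO-8M, 54.3% of the genes that rose and 61.8% of those that fell kept their sign (r = 0.063, rho = 0.142), and none was called in the same direction (background 0% higher and 0.015% lower). In dKO-19M the shares were 51.9% and 68.5% (r = 0.134, rho = 0.216), and 3 genes that fell were called lower (background 0.03% higher and 0.06% lower). In the opposite direction, 7 of the genes that rose were called lower in dKO-8, 9 in dKO-19, 1 in dKO-8M, 2 in Rv1-Luc in CSS and 1 in Rv1-Luc in FBS, and 1 of those that fell was called higher in each of dKO-19, Rv1-Luc in CSS and Rv1-Luc in FBS. Over all genes 49.7% in dKO-8M and 50.04% in dKO-19M had positive values. The median log2 fold change of the 595 genes that rose was 0.70 in Rv1-WT in FBS, 0.63 in Rv1-Luc in CSS, 0.18 in dKO-8, 0.37 in dKO-19, 0.021 in dKO-8M and 0.0095 in dKO-19M. For the 251 that fell it was -0.48, -0.53, -0.26, -0.36, -0.093 and -0.14 in the same order. The ATF4-linked genes CHAC1 (-1.71 and -1.98) and DDIT3 (-1.46 and -1.20) had larger decreases in dKO-8 and dKO-19 than in Rv1-WT in CSS, a difference that was not tested. Line and serum both differ there, since the derivatives grew in FBS. In Rv1-WT in FBS, CHAC1 measured 31.0, 25.3 and 32.8 CPM under vehicle and 18.2, 15.3 and 16.6 CPM under SNX631. DDIT3 measured 68.4, 67.8 and 68.8 CPM against 43.8, 40.6 and 38.7 CPM in that setting.

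**Figure D5:**
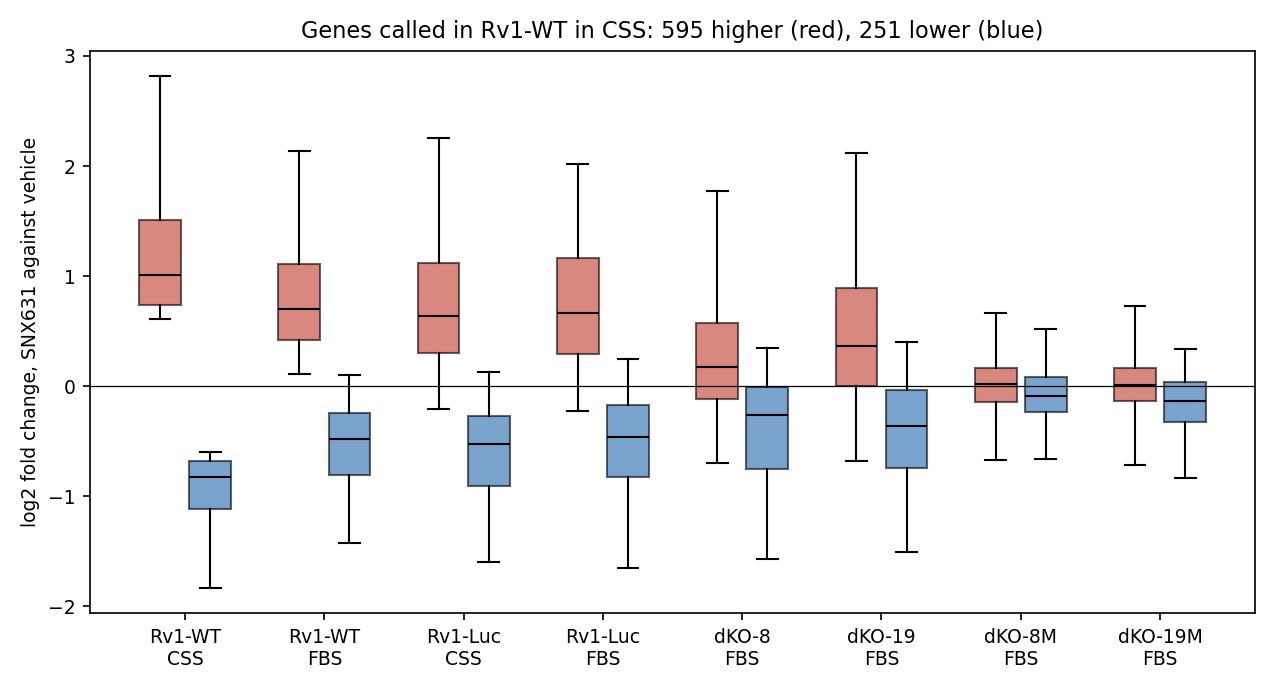
Log2 fold change under SNX631 (y axis) of the 595 genes called higher (red) and the 251 called lower (blue) in Rv1-WT in CSS, in each of the 8 settings (x axis). Boxes show the median and quartiles and whiskers the 5th to 95th percentiles, and the medians are 1.01 and -0.83 in Rv1-WT in CSS, 0.70 and -0.48 in Rv1-WT in FBS, and nearest to 0 in the kinase-dead dKO-8M (0.021 and -0.093) and dKO-19M (0.0095 and -0.14).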

How the data were processed

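RNA was measured by strand-specific bulk RNA-seq. Per the labels and the submitters' processing notes, the authors trimmed reads with cutadapt 2.8, aligned them with STAR 2.7.2b to GRCh38.p13 and counted them per gene with featureCounts (Subread 2.0.3). GRCm39 is named as well. The annotation release is not given in the sources used here. The deposited values are expected counts that include fractions (81.6% of nonzero values were whole), and they were rounded before testing. Fractions mark reads shared between genes.

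The 61817 entries hold 2 transgenes, and 61766 of 61815 gene identifiers matched a name. Genes were kept by edgeR's filterByExpr (minimum count 10, minimum total 15), leaving 20009. TMM scaling and edgeR 4.0.16 quasi-likelihood tests (robust, two-sided, Benjamini-Hochberg FDR over all genes; R 4.3.3, limma 3.58.1) used 1 fit of all 48 libraries in 16 groups (32 residual degrees of freedom, biological coefficient of variation 4.20%). Genes were called at an FDR under 0.01 and a fold change over 1.5. Errors are standard errors of the log2 fold change. Differences of effects were tested as interaction contrasts in the same fit. A group whose 3 libraries all held at most 3 counts was taken as at the floor. Depth was 15.1 to 18.2 M counts in the 6 libraries, which limits genes under about 1 CPM.

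Named genes were the 15 highest and 12 lowest called changes among genes with a symbol that averaged 2 CPM or more, the 8 called genes with the lowest p, up to 6 called (or, with none called, 2) list members with the lowest p, the 8 called genes with the lowest p in each test of a difference, and a few set genes (MYC, KLK3 and others). Results for some genes are not reported here. The members and lists were chosen with earlier results of these data known. The tests were checked on simulated data. Replicate numbers did not pair the samples (correlations of deviations 0.021, 0.013 and -0.012). Alternatives were DESeq2 1.42.0, other scalings, filters and thresholds, thinned counts, smaller fits, a replicate block and leaving out each library.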

Additional observations from a re-analysis of the deposited data

Results flagged for a closer look

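The effect of SNX631 in Rv1-WT differed between the sera for 59 genes. In CSS it differed between the 2 lines for 225 genes. Both were found by a test of the difference itself (edgeR interaction contrasts, FDR under 0.01 and more than 1.5-fold). Values below are differences of log2 fold changes.

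Between CSS and FBS, the genes named here with a called difference all had the more positive effect in CSS: EGLN3 (1.13), PDIA4 (0.83), MFSD2A (0.81), LGR5 (0.80), HSP90B1 (0.77), APLN (0.75), DERL3 (0.74), GADD45B (0.69), FZD4 (0.67), MYC (0.67), CALR (0.65), CRELD2 (0.65) and TFRC (0.61). PDIA4, HSP90B1, DERL3, CALR and CRELD2 serve protein folding in the endoplasmic reticulum.

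Between the lines in CSS, the genes named here with a more negative effect in Rv1-Luc than in Rv1-WT were NDRG1 (-1.92), SLC16A3 (-1.56), CHAC1 (-1.35), PCDH9 (-1.34), PDIA4 (-1.30), UGT2B4 (-1.27), EGLN3 (-1.25), CA10 (-1.16), MFSD2A (-1.12), SYT4 (-1.09), LGR5 (-1.06), HSP90B1 (-1.04), DERL3 (-1.04), FZD4 (-0.94), ACSS2 (-0.93), SOAT1 (-0.77), BMP6 (-0.76), MYC (-0.75), TOB1 (-0.72), HSPA5 (-0.72), CALR (-0.69), NIBAN1 (-0.67), DDIT3 (-0.64), CHGB (-0.63), GADD45B (-0.62), CRELD2 (-0.61), TRIB1 (-0.59) and NET1 (-0.59). Those with a more positive effect were TXNIP (0.80), IRF9 (1.01), KLK3 (1.29) and MT1E (1.56). The 2 comparisons share the 6 Rv1-WT libraries in CSS, so a gene in both lists is not independent evidence.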

How the results depend on the processing

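The counts of called genes moved with the threshold. With an FDR under 0.05 and no fold limit, 5296 genes were called in Rv1-WT in CSS (2848 higher, 2448 lower), 627 differed between the sera and 1697 between the lines. With an FDR under 0.05 and more than 1.5-fold, 382 were lower, 122 differed between the sera and 380 between the lines. A test against a 1.5-fold change called 214 (188 higher, 26 lower), 1 and 12. Without genes that had fractional counts 165 were lower. With 1 library left out the counts ran from 710 to 810 (501 to 569 higher, 206 to 241 lower), from 40 to 67 between the sera and from 176 to 232 between the lines, and 522 of the 846 genes were called in all 6 such fits of the comparison. DESeq2 called 754, of which 738 were among the 846. The replicate numbers did not pair the samples, and a fit with the replicate block called 824 genes (586 higher, 238 lower), 70 and 237. Of 95 called named genes, 77 kept the call in all 14 settings run for them. Those settings did not include the test against a 1.5-fold change, the other thresholds or the removal of genes with fractional counts. The named genes that lost the call in at least 1 of the settings were ACP3, ACSS2, AXIN2, BAMBI, CDKN1A, GADD45B, HERC6, IRF9, KLHDC7B, KRT81, MT1E, NDRG1, PSMB9, RELN, SLC16A3, SLC7A8, TGFB2 and WNT5A. Some of these calls were lost with every library kept, such as NDRG1 with the replicate block, and the cause was not tested. Uncalled genes changed sign when 1 library was left out: CDK8 ranged from -0.010 to 0.052, negative without vehicle replicate 3 (-0.0054) or SNX631 replicate 1, KLK2 from -0.12 to 0.023 and ESAM from -0.014 to 0.54, each with its sign changed without vehicle replicate 3.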

Other observations

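Some gene families that were picked after their values were seen are given as a description only. Their counts stand against 2.97% of all genes called higher and 1.25% called lower. Of 19 clustered beta protocadherins, cell surface adhesion proteins of neurons, SNX631 lowered 9 and raised none in CSS-grown Rv1-WT, with a median log2 fold change of -0.82 and 17 of 19 below 0. The medians were -0.56 in Rv1-WT in FBS and -0.83 in Rv1-Luc in CSS, with 18 of 19 below 0 in each. PCDHB8 averaged 10.6 CPM under vehicle and 4.98 CPM under SNX631. The 9 include PCDHB18P, which is named as a pseudogene. These genes are close copies of each other, and 16 of the 19 had fractional counts, so reads were shared between them. Of 22 gamma protocadherins 3 fell and none rose (median -0.41), all with fractional counts, and of 16 alpha protocadherins none was called (median -0.11). Of 10 protocadherins outside the clusters 5 rose and none fell (median 0.69), among them PCDH9 (2.06), PCDH17 (1.65) and PCDH19 (0.95). Their median was 0.39 in Rv1-WT in FBS but 0.10 in Rv1-Luc in CSS, where 3 lay below 0 and PCDH17 stood at 0.072.

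Of 9 kallikreins tested 3 rose and none fell, KLK4 (1.17), KLK15 (1.10) and KLK1 (0.60). Of 7 UGT2B glucuronosyltransferases 2 fell and UGT2B4 rose (0.66). Of all genes 2.97% were called higher and 1.25% lower.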
